A study of Mus musculus with 44 samples.

Results

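The nuclear genes for the subunits of oxidative phosphorylation were followed in mouse dendritic cells (DCs) over the day. A gene was taken when its symbol started with Nduf, Uqcr, Cox4 to Cox8 or Atp5, or was 1 of the Sdh genes a to d, and when 5 or more of the 44 libraries had it at 1 CPM or above, CPM being the count scaled to 1000000 reads assigned to genes. The table of 14699 genes listed 87 such genes, and 85 passed. They comprised 36 genes of complex I (7 core and 29 accessory subunits), 4 of complex II, 8 of complex III, 15 of complex IV, 14 of complex V and 8 genes of assembly or related function (Ndufaf1 to Ndufaf7 and Cox7a2l). Cox7a1 and Cox4i2 lay just inside the threshold, with 8 and 12 libraries at or above 1 CPM. Cox8b and Ndufa4l2 lay outside it, with no library above 0.498 and 0.442 CPM. All 12 libraries in which Cox4i2 reached 1 CPM came from the labelled Bmal1ΔcDC and PBS groups described next, so this gene entered only through groups in which it was high, and its values are given with no test. Counts of called members below are over the other 84.

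CD45+CD11c+MHCIIhigh cells had been sorted from inguinal draining lymph nodes 24 h after injection, at zeitgeber time (ZT, hours after lights on) 3, 9, 15 or 21. WT mice received B16-F10-OVA cells, a mouse melanoma line that carries ovalbumin, with 5 libraries at each time (20 in all). Mice labelled KO received the same cells, with 3 libraries at each time (12 in all); they were Clec9a-cre:Bmal1 flox mice (Bmal1ΔcDC), homozygous for the floxed allele and heterozygous for a Cre driven from Clec9a, a gene of conventional DCs and their precursors. Genotype WT mice given PBS in place of tumour cells had 3 libraries at each time (12 in all). All mice were females of 8 to 12 weeks under equal light and dark phases, moved to the different times in light-tight cabinets, and each library came from its own mouse. The comparison of WT with Bmal1ΔcDC was made for the cell-intrinsic clock, and that of WT with PBS for the response to the tumour cells. Both used the same WT libraries as controls, so a shift of those libraries alone would enter both.

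Oxidative phosphorylation takes place in the inner mitochondrial membrane. Complex I (NADH dehydrogenase, Nduf genes) and complex II (succinate dehydrogenase, Sdh genes, also part of the TCA cycle) pass electrons to ubiquinone, complex III (Uqcr genes) passes them on to cytochrome c, and complex IV (cytochrome c oxidase, Cox genes) to oxygen. Complexes I, III and IV pump protons, and complex V (ATP synthase, Atp5 genes) uses the gradient to make ATP. In DCs, activation is known to shift energy metabolism from oxidative phosphorylation towards glycolysis. Subunits encoded in mitochondrial DNA were not analysed here.

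A short stretch of promoter is shown for members that hold a motif of a factor with a known bearing on these genes: NRF1 (nuclear respiratory factor 1), a regulator of respiratory chain genes, or the E-box, which the BMAL1-CLOCK dimer binds. A RefSeq window (GRCm38.p6) from 250 bases before to 50 bases after the start was matched for 71 of the 85 members. The NRF1 motif, letters GCGCATGCGC, was searched on both strands and lay in 7 windows, 9.86% of the members against 2.36% of the 9626 matched genes. Each sequence runs 5′ to 3′ on the strand of its gene with the motif in capitals. The stretch of Atp5g2 is chr15:102671070-102671099 on the minus strand with the motif 42 bases before the start, that of Cox6a1 chr5:115349101-115349130 on the minus strand (162 bases before) and that of Ndufaf4 chr4:24897960-24897989 on the plus strand (113 bases before).
Atp5g2: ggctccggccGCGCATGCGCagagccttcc
Cox6a1: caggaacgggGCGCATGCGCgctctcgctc
Ndufaf4: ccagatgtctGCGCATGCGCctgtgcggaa
The E-box, letters CACGTG on both strands, lay in 5 members' windows (Atp5g1, Atp5g3, Atp5l, Ndufa7 and Ndufv1), which was 7.04% of the members and 11.5% of all matched genes. The stretch of Atp5l is chr9:44920874-44920899 on the minus strand (147 bases before the start) and that of Ndufv1 chr19:4012909-4012934 on the minus strand (169 bases before).
Atp5l: caggattcttCACGTGttatcgcgcc
Ndufv1: cagagggcgaCACGTGagcctggttt
A match is a run of letters and not a measured binding site. YY1 letters, AAGATGGC, lay in 12.7% of the members' windows and 5.24% of all, whereas ETS letters, CCGGAAGT, lay in 7.04% and 9.0%.

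The libraries held 20088012 to 28962671 reads in WT, 29406729 to 55799163 in Bmal1ΔcDC and 28003328 to 49590055 in PBS mice, so depth and condition cannot be told apart. DC markers were present in every group: the summed level of 11 conventional DC genes ran from 15238 to 28740 CPM in WT, 16162 to 28297 in Bmal1ΔcDC and 20382 to 27871 in PBS. Arntl, which encodes BMAL1, was at 8.67 to 24.4 CPM (median 14.8) in WT and 11.5 to 38.0 (median 18) in the libraries labelled Bmal1ΔcDC. A count over the whole gene does not check the deletion of a floxed exon, so these groups are named by their labels. Markers of other cells moved with condition. The 9 macrophage and monocyte genes summed to 448 to 1149 CPM in WT, 921 to 3415 in Bmal1ΔcDC and 1853 to 3368 in PBS, and the 7 NK cell genes to 5.29 to 24.6, 12.48 to 85.7 and 48.9 to 393 CPM. Genes were called at a Benjamini-Hochberg adjusted p under 0.05 (limma) for the difference from WT averaged over the 4 times. Of 17 T cell genes, 14 were higher in PBS (median 0.54, log2) and 5 in Bmal1ΔcDC (0.22), with 1 lower in each. Of 8 B cell genes 4 were higher in PBS (0.40) and 2 in Bmal1ΔcDC (0.19). Of all genes 24.6% were higher in PBS and 23.5% in Bmal1ΔcDC. The T and B cell counts in Bmal1ΔcDC were thus near the share of all genes. The part of these cells in the results below was not tested. In such bulk libraries fewer cells of a type and less RNA per cell cannot be told apart.

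Among the libraries, 2 stood apart from their timepoint in the members. In Bmal1ΔcDC ZT21 replicate 1, 78 of the 85 members lay below the mean of the other 2 libraries of that time, with a median difference of -0.73 on the log2 scale (complex IV -0.84, complex III -0.90, complex II -0.18). In WT ZT3 replicate 3, 75 of 85 lay above the mean of the other 4 libraries, by a median of 0.47. These libraries also differed in other genes by transcript length. Among other genes with a mean of at least 50 CPM, the 666 shortest transcripts (463 to 1796 exon bases) were lower in Bmal1ΔcDC ZT21 replicate 1 by a median of -0.34, and the 665 longest (5056 to 21483 bases) were higher by 0.29. In WT ZT3 replicate 3 the shortest were higher by 0.21, and the longest differed by -0.48.

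The members are short. Their exons covered a median of 1001 bases against 3288.5 for all 11963 genes tested, all 15 genes of complex IV had at most 1500 bases, and complex II had the longest median (2065.5). Over all 44 libraries the members' mean level followed the same axis. Of the 22 libraries in which the members lay above their median, 21 also had the short transcripts of other genes above theirs, and 19 had the long transcripts below. Members of at most 1500 bases averaged -0.70 in Bmal1ΔcDC ZT21 replicate 1 relative to their mean over all libraries, and members over 1500 bases averaged -0.36. Whether the members move as a pathway or as short transcripts was not tested, and the counts and medians below were also computed with the mean of the short transcripts as a covariate and without the outlying libraries, both chosen after seeing the data.

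**Figure D1:**
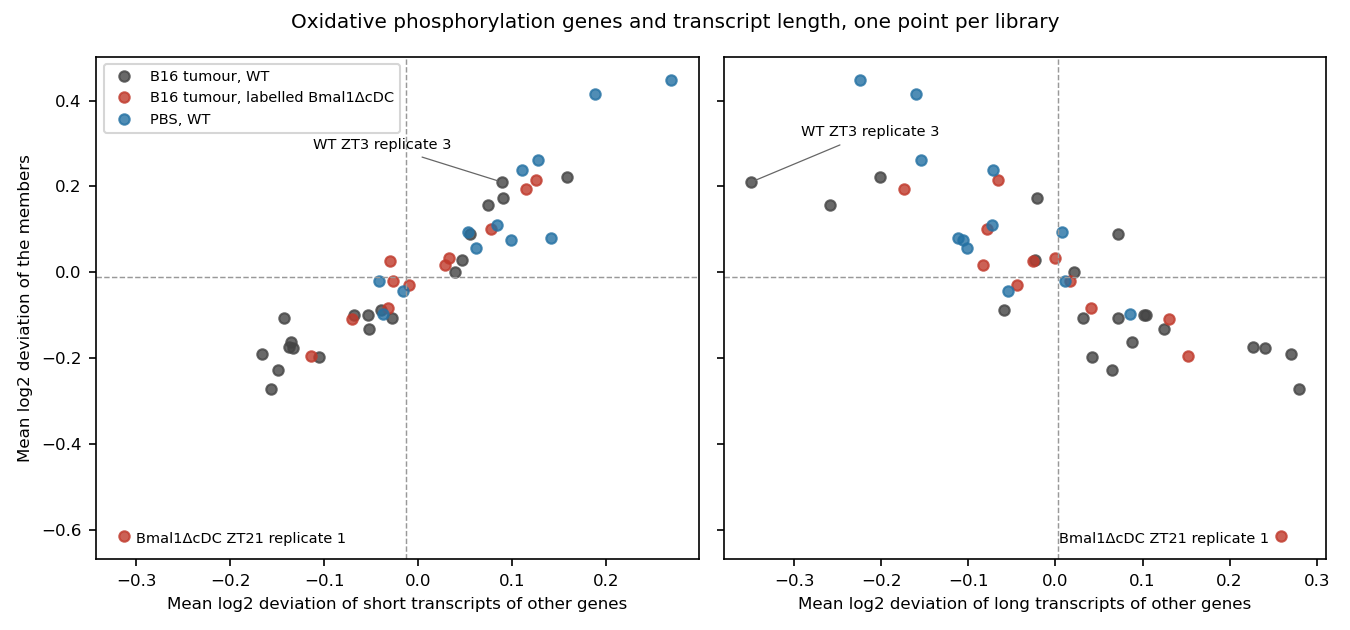
Mean log2 deviation of the 85 members in each library (y axis) against that of the short (left) and long (right) transcripts of other genes (x axes). Each point is a library coloured by condition and dashed lines are medians; 21 of the 22 libraries above the median of the members lie right of the median of the short transcripts, and Bmal1ΔcDC ZT21 replicate 1 lies alone at -0.61.

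The members together took 1.23% ± 0.128 (SD, n = 20) of all reads in WT, 1.20% ± 0.150 (n = 12) in Bmal1ΔcDC and 1.33% ± 0.145 (n = 12) in PBS libraries. In WT this share ran from 1.05% to 1.49%. Complex V took 0.353%, complex I 0.345%, complex IV 0.288%, complex III 0.136% and complex II 0.0716%. Per kilobase of exon, the highest mean levels in WT were those of Cox4i1 (713 CPM per kb), Cox6a1 (582), Cox8a (563), Cox6b1 (560) and Atp5l (480). These are small subunits of complex IV and a membrane subunit of complex V. The lowest were those of Cox4i2 (0.392), Cox6a2 (1.27) and Cox7a1 (1.57), which are the isoforms of complex IV known from lung, heart or muscle, followed by the assembly factor gene Ndufaf4 (3.10). Their ubiquitous partners stood far above them, with Cox7a2, the partner of Cox7a1, at 225 CPM per kb.

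No member passed the test for a 24-h rhythm in any condition, and the complexes moved little over the day in WT mice. A cosinor (a sine and cosine of 24-h period) was fitted on log2(CPM + 0.5) with limma in each condition. At a Benjamini-Hochberg adjusted p under 0.05 it called 0 of 84 members in WT (0.0251% of all genes), 0 in Bmal1ΔcDC (0.0% of all genes) and 0 in PBS (0.0%). At an unadjusted p under 0.05 it called 4 members in WT, 0 in Bmal1ΔcDC and 7 in PBS, against 9.2%, 10.5% and 7.38% of all genes. These unadjusted counts depended on single libraries. Without WT ZT3 replicate 3 the count in WT was 20 (19.6% of all genes), without Bmal1ΔcDC ZT21 replicate 3 that in Bmal1ΔcDC was 21 (12.9%), and without PBS ZT15 replicate 3 that in PBS was 38 (8.31%). The adjusted count stayed at 0 with any 1 library left out.

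In WT, complex I deviated from its average over all libraries by -0.10 ± 0.17 (SD, n = 5, log2) at ZT3, -0.13 ± 0.12 at ZT9, -0.02 ± 0.20 at ZT15 and 0.03 ± 0.13 at ZT21. Complex IV was at -0.12 ± 0.23, -0.26 ± 0.13, -0.02 ± 0.25 and -0.06 ± 0.17, and complex V at -0.03 ± 0.24, -0.11 ± 0.12, 0.09 ± 0.16 and 0.06 ± 0.10. In each of these the lowest mean was at ZT9, and the SD between mice was of the size of the range of the means. In complexes I and V that order rested on the outlying WT ZT3 replicate 3, at 0.20 and 0.39. The other ZT3 libraries lay at -0.21 to -0.14 in complex I and at -0.21 to -0.08 in complex V. Without replicate 3 the lowest mean of both was at ZT3. Complex II was at -0.10 ± 0.11, -0.16 ± 0.06, -0.02 ± 0.05 and -0.16 ± 0.06, with its lowest means at ZT9 and ZT21. Complex III was at -0.04 ± 0.19, -0.07 ± 0.11, 0.05 ± 0.18 and 0.08 ± 0.12. Each gene has equal weight in these means. That of complex IV holds Cox6a2 and Cox4i2, with medians of 0.930 and 0.299 CPM in WT. The summed level of complex IV in WT, to which these genes add little, averaged 2811, 2655, 2976 and 3070 CPM at ZT3, ZT9, ZT15 and ZT21.

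In Bmal1ΔcDC mice complex I was at 0.05 ± 0.04 (n = 3) at ZT3, 0.09 ± 0.14 at ZT9, -0.09 ± 0.11 at ZT15 and -0.16 ± 0.43 at ZT21. Complex IV was at 0.09 ± 0.11, 0.05 ± 0.18, -0.03 ± 0.16 and -0.20 ± 0.52, complex III at -0.01 ± 0.03, 0.04 ± 0.14, -0.14 ± 0.13 and -0.20 ± 0.49, and complex V at -0.02 ± 0.10, 0.03 ± 0.10, -0.15 ± 0.11 and -0.27 ± 0.44. In these 4 complexes the lowest mean was at ZT21. That order rested on the outlying ZT21 replicate 1, at -0.61 in complex I and -0.78 in complex IV. Without it the lowest mean was at ZT15 in each of them. Complex II differed in order, with its highest mean at ZT15, at -0.00 ± 0.11, -0.01 ± 0.06, 0.06 ± 0.09 and -0.01 ± 0.10. At ZT21 all 3 libraries lay apart, at -0.61, -0.11 and 0.24 in complex I and at -0.78, -0.04 and 0.21 in complex IV. In PBS mice complex I was at -0.01 ± 0.09, 0.05 ± 0.09, 0.31 ± 0.23 and 0.15 ± 0.18, and complex IV at 0.06 ± 0.06, 0.10 ± 0.06, 0.41 ± 0.26 and 0.29 ± 0.17. Complex II was at 0.13 ± 0.09, 0.14 ± 0.07, 0.24 ± 0.12 and 0.16 ± 0.07, complex III at -0.05 ± 0.08, 0.00 ± 0.09, 0.22 ± 0.18 and 0.10 ± 0.14, and complex V at -0.03 ± 0.10, 0.02 ± 0.09, 0.26 ± 0.19 and 0.15 ± 0.12. All 5 complexes had their highest mean at ZT15. At ZT15 the PBS libraries were split, with complex IV at 0.56 and 0.55 in replicates 1 and 2 and at 0.11 in replicate 3. The complex IV means hold Cox6a2 and Cox4i2 in these groups too, whose differences from WT in PBS were 2.28 and 1.38. Over all libraries complex IV averaged -0.11 in WT, -0.02 in Bmal1ΔcDC and 0.22 in PBS. Its share of reads was 0.288%, 0.276% and 0.310%, so the order of WT and Bmal1ΔcDC turned.

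**Figure D2:**
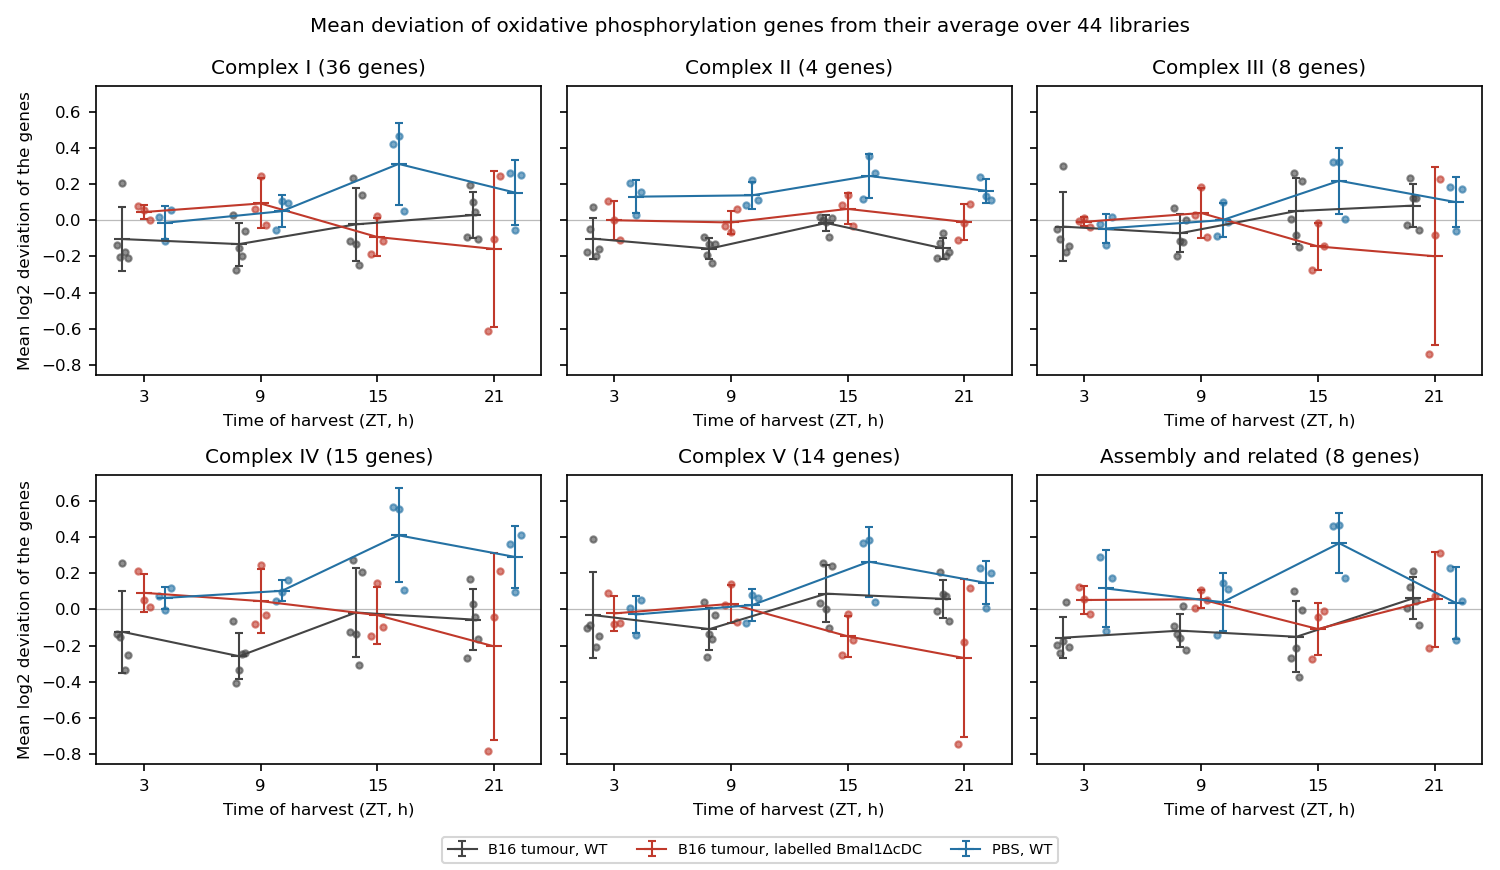
Mean log2 deviation of the genes of each complex from their average over the 44 libraries (y axis) by ZT of harvest in hours (x axis). Points are libraries, lines join timepoint means and bars are SD (n = 5 in WT, n = 3 in the others); the libraries of a timepoint overlap those of the others in most panels, and Bmal1ΔcDC ZT21 replicate 1 lies at -0.78 in complex IV.

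The fitted peak times differed in order between conditions, in fits of which none passed after adjustment. The acrophase, the time of the fitted peak, fell in the first 12 h of the day in 6 of 85 members in WT (59.1% of all genes), 71 in Bmal1ΔcDC (34.5% of all genes) and 11 in PBS (58.0%). Its median over the members was 19.0 h in WT, 7.39 h in Bmal1ΔcDC and 16.3 h in PBS. This median treats the hours as a line and not as a circle. The median amplitudes were 0.11, 0.19 and 0.20 (log2). With the short transcripts as a covariate the count was 49 in WT (51.9% of all genes), 54 in Bmal1ΔcDC (33.6%) and 19 in PBS (56.6%). The cytosolic ribosomal protein genes, another set of 87 genes, had 7, 81 and 8 genes in the first 12 h, and the 77 mitochondrial ribosomal protein genes 13, 57 and 14.

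The test of the difference in time course itself called no member. The genotype by time interaction passed at an adjusted p under 0.05 (limma, 32 libraries) in 0 of 84 members (0.0502% of all genes), with 11 at an unadjusted p under 0.05 against 18.3% of all genes. That count of 11 rested on single libraries and settings: it was 49 (23.7% of all genes) without Bmal1ΔcDC ZT21 replicate 3, 23 (23.7%) without WT ZT3 replicate 3, 1 (14.4%) without Bmal1ΔcDC ZT9 replicate 2, 28 (17.2%) with median-of-ratios scaling and 2 (15%) with the short transcripts as a covariate. With array weights, which give outlying libraries less influence, it was 43 (30.7%), and 7 members passed after adjustment, against 8.95% of all genes. The treatment by time interaction called 0 (0.0% of all genes), with 4 at an unadjusted p under 0.05 against 11.9%, from 1 (10.4%) without PBS ZT15 replicate 2 to 9 (14.2%) without replicate 3 of that time, and 12 (14.0%) with the covariate. Both interactions called 0 members without the outlying libraries and with the covariate. The smallest genotype by time p was that of Ndufs6, an accessory subunit of complex I, with an unadjusted p of 0.0157 (adjusted p = 0.193, limma). In WT, Ndufs6 was at 83.9, 76.0, 109, 75.3 and 67.4 CPM at ZT3 and at 89.8, 106, 99.4, 95.3 and 81.1 at ZT21. In Bmal1ΔcDC it was at 93.9, 87.6 and 94.0 CPM at ZT3 and at 44.4, 77.2 and 94.1 at ZT21, where the lowest value was that of replicate 1.

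ZT9 and ZT21 were compared in each condition because the study contrasted these times. At an adjusted p under 0.05 (limma) 0 of 84 members differed in WT (0.226% of all genes), 0 in Bmal1ΔcDC (0.00836%) and 0 in PBS (0.0%). At an unadjusted p under 0.05 there were 5 in WT, all lower at ZT9 (5.02% of all genes in that direction), 1 in Bmal1ΔcDC and 2 in PBS, against 11.5%, 10.9% and 5.32% of all genes. With 1 library left out the WT count ran from 3 to 13 (14.5% of all genes, without ZT3 replicate 3) and the Bmal1ΔcDC count from 0 to 40 (14.3%, without ZT21 replicate 3), and the PBS count from 0 to 2. With array weights it was 47 in WT (25.3%), and with median-of-ratios scaling 13 in Bmal1ΔcDC (10.1%). The median difference, ZT9 minus ZT21, was -0.18 in WT with 76 of 85 members below 0, while 56.2% of all genes were above 0. In Bmal1ΔcDC it was 0.27 with 72 of 85 members above 0, against 37.0% of all genes, and in PBS -0.10 with 68 below 0, while 54.5% of all genes were above 0. Markers of other cells had differences of the same sign in WT: T cell genes had a median difference of -0.63 (13 of 17 at an unadjusted p under 0.05, limma, and 1 after adjustment) and macrophage and monocyte genes one of -0.42 (6 of 9, and 0 after adjustment). In Bmal1ΔcDC these lists were at -0.52 and -0.40, and in PBS at 0.23 and -0.03. Their part was not tested. The value of the members in Bmal1ΔcDC rested on ZT21 replicate 1, without which the median was 0.03. With the short transcripts as a covariate the median was -0.00466 in WT, 0.03 in Bmal1ΔcDC and -0.07 in PBS.

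Of the core genes, Atp5b, the catalytic beta subunit of complex V, was at 721, 830, 840, 806 and 814 CPM at ZT9 and at 814, 808, 769, 806 and 867 at ZT21, a difference of -0.02 ± 0.08 (95% interval -0.18 to 0.14; adjusted p = 0.932, limma). The values of both times overlapped. Ndufb2, an accessory subunit, was at 34.2, 26.6, 32.4, 29.0 and 33.3 CPM at ZT9 and at 38.0, 50.2, 46.2, 43.2 and 38.1 at ZT21 in WT. All 5 values at ZT9 lay below all 5 at ZT21, and the difference of -0.46 ± 0.17 did not pass (adjusted p = 0.307, limma; unadjusted p = 0.0117). In Bmal1ΔcDC Ndufb2 was at 31.9, 41.4 and 36.5 CPM at ZT9 and at 12.8, 34.5 and 45.8 at ZT21, so that these times overlapped.

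**Figure D3:**
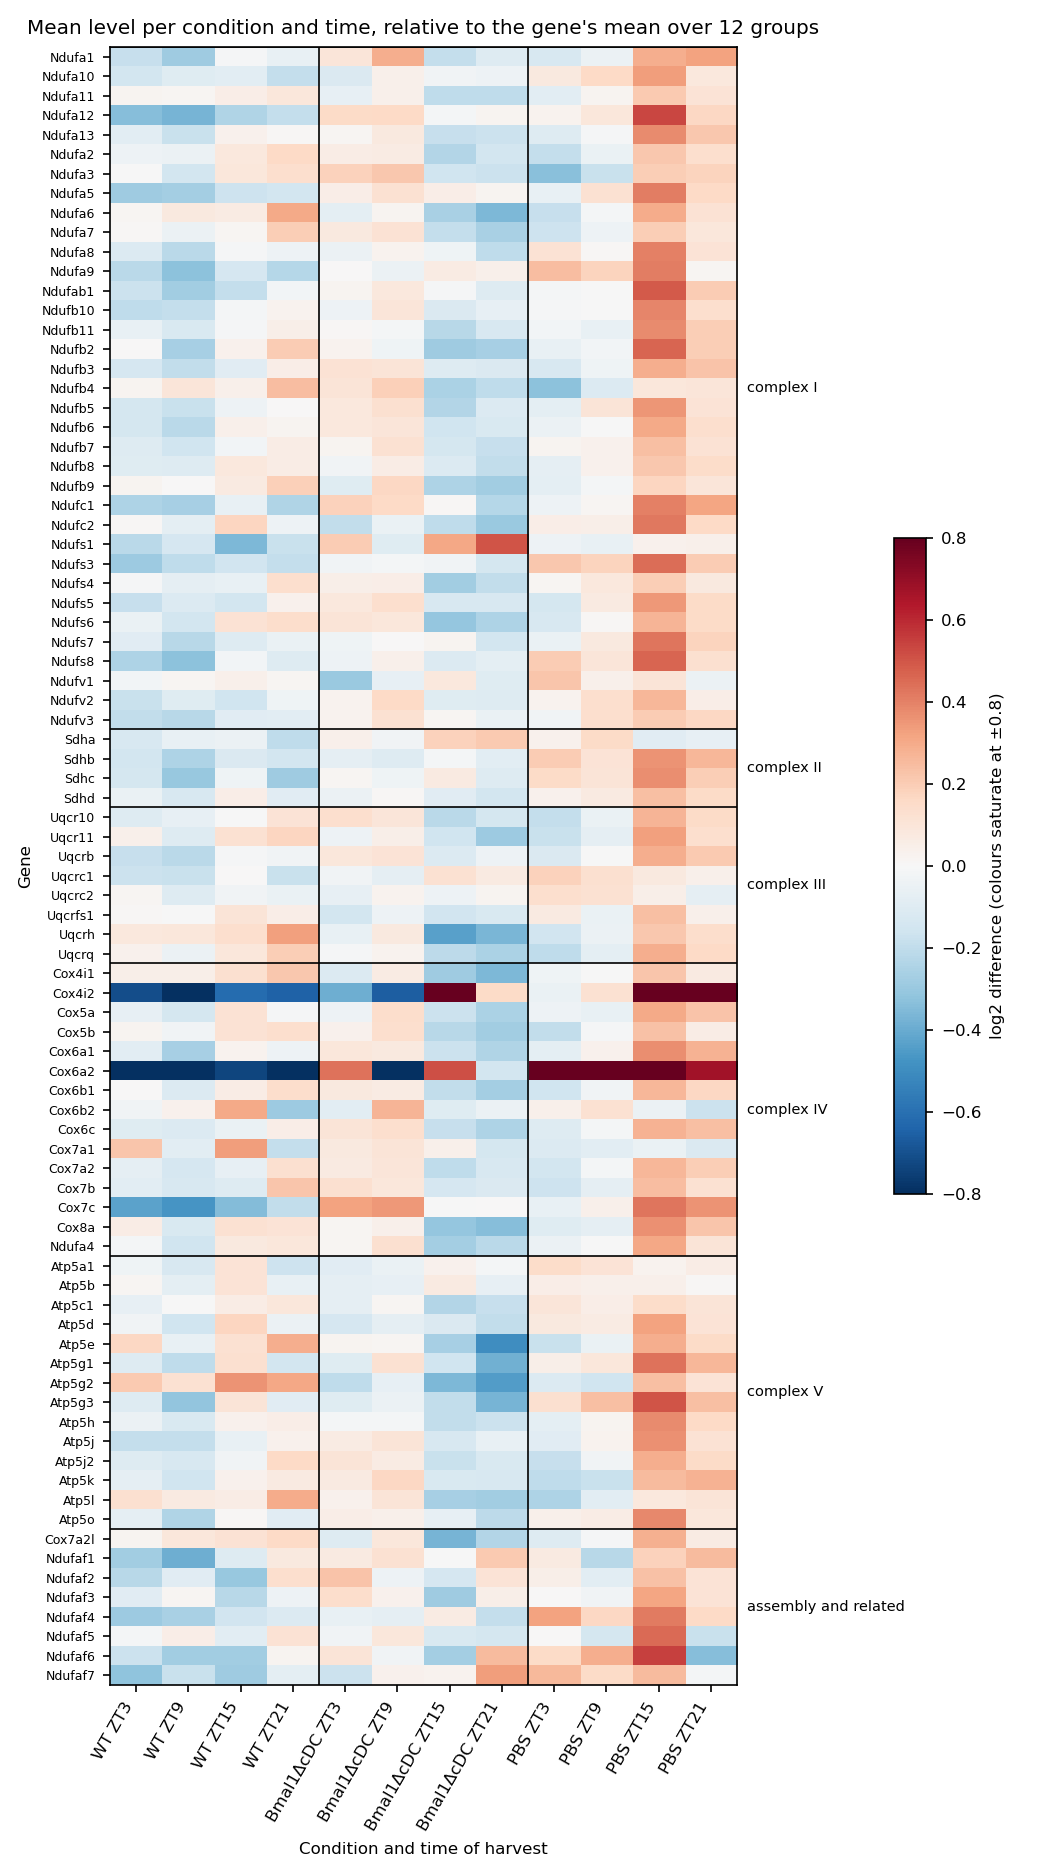
Mean log2 level of the members shown (rows, grouped by complex) in each condition and time (columns) relative to the mean over the 12 groups. Red is higher and blue lower, with colours saturating at 0.8; Cox6a2 and Cox4i2 differ most between conditions, and the PBS ZT15 column is above the mean in most rows.

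The level averaged over the 4 times was compared between Bmal1ΔcDC and WT mice. Among the members, 15 of 84 passed at an adjusted p under 0.05 (limma), against 33.7% of all genes. Of these, 8 were higher in Bmal1ΔcDC (23.5% of all genes) and 7 lower (10.2%). At an unadjusted p under 0.05 there were 23 members, against 43.0% of all genes. The difference was above 0 in 43 of 85 members and 63.2% of all genes, with a median of 0.00071 (log2) over the members and 0.10 over all genes. With median-of-ratios scaling 17 passed, 3 of them higher (14.6% of all genes) and 14 lower (14.7%), and Ndufa9, Ndufa12, Ndufaf1, Sdha and Uqcrc1 did not pass. Without both outlying libraries 17 were higher (22.9% of all genes) and 5 lower (11.1%), and Atp5e, Ndufaf1, Sdha and Uqcrfs1 did not pass. Without Bmal1ΔcDC ZT21 replicate 1 there were 13 higher (23.4% of all genes) and 5 lower (10%), and without replicate 3 of that time 7 higher (22.6% of all genes) and 15 lower (10.7%). With the covariate 13 were higher (29.1% of all genes) and 27 lower (12.4%). In no member did all Bmal1ΔcDC libraries lie above or below all WT libraries. Of all genes, 0.435% lay above and 0.468% below in this way. Single times without overlap between groups are given below for some genes. How many of all genes separate at a single time was not counted.

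The PBS minus WT difference over the same 4 times was mostly in 1 direction. Of the 84 members 35 passed (adjusted p under 0.05, limma; 37.9% of all genes), 34 higher in PBS (24.6% of all genes) and 1 lower (13.3%). At an unadjusted p under 0.05 there were 44 members, against 45.8% of all genes. The difference was above 0 in 69 of 85 members and 55.3% of all genes, with a median of 0.16 over the members and 0.04 over all genes. Complex I had 17 of 36 members higher, complex II 3 of 4, complex III 2 of 8, complex IV 3 of 14, complex V 5 of 14 with 1 lower, and the assembly group 4 of 8. With median-of-ratios scaling 21 were higher (20.3% of all genes) and 1 lower (17.4%), and all 22 had also passed before. Without the outlying libraries 43 were higher (24.7% of all genes) and 1 lower (15.8%). With the short transcripts as a covariate the median was -0.05, with 16 higher (25.1% of all genes) and 24 lower (9.8%), so the direction over the members depended on that term. Of the genes named below, Atp5g1, Cox6a1 and Sdhd did not pass with the covariate or with median-of-ratios scaling, Ndufs1, Atp5a1 and Ndufaf1 did not pass with that scaling, and Ndufaf1 also failed without the outlying libraries. The 666 short transcripts of other genes took 25.2% ± 2.29 (SD, n = 20) of all reads in WT and 26.8% ± 1.76 (n = 12) in PBS libraries. Cox6a2, Ndufa9, Sdhb, Ndufs3, Cox7c, Ndufs8 and Ndufa12, which had the smallest p of the other members, were also higher under this covariate and without the outlying libraries.

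**Figure D4:**
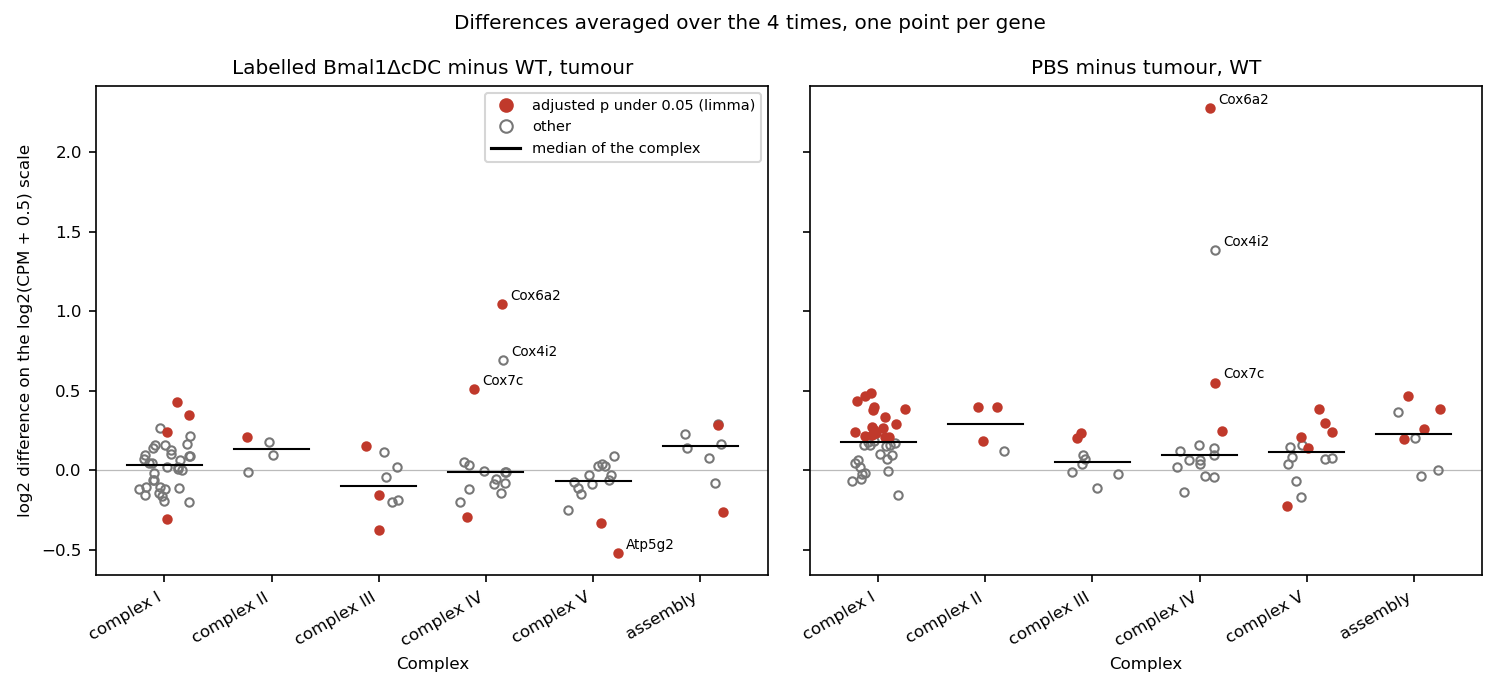
Log2 difference of each member averaged over the 4 times, Bmal1ΔcDC minus WT (left) and PBS minus WT (right), by complex. Filled points passed at an adjusted p under 0.05 (limma), Cox4i2 is drawn open with no test, and bars are medians; the right panel has 34 filled points above 0 and 1 below, and Cox6a2 lies highest in both panels.

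Among core subunits of complex I, Ndufs1, an iron-sulfur subunit of the electron input module (chr1:63143592-63176822), was higher in Bmal1ΔcDC. It ran from 35.1 to 59.8 CPM (median 51.3) in WT, from 40.1 to 112 (median 70.1) in Bmal1ΔcDC and from 42.9 to 65.8 (median 60.5) in PBS. The differences from WT were 0.43 ± 0.09 (SE; adjusted p = 0.000658, limma) and 0.21 ± 0.07 (adjusted p = 0.0159). At ZT21 the 3 Bmal1ΔcDC values were 112, 65.3 and 70.8 CPM and the WT values 51.4, 47.7, 53.1, 51.5 and 53.0, which did not overlap, and the highest value was that of the outlying replicate 1. Ndufs1 has 2819 exon bases and was the member that stood highest above the other 2 libraries in that replicate (0.72). Its CPM values were not whole numbers of reads in most libraries.

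Ndufs3 and Ndufs8, a core subunit of the peripheral arm and an iron-sulfur subunit, were higher in PBS. Ndufs3 ran from 46.5 to 67.2 CPM (median 55.1) in WT and from 63.3 to 106 (median 79.2) in PBS, a difference of 0.47 ± 0.07 (adjusted p = 2.02e-06, limma). Ndufs8 ran from 57.1 to 93.2 CPM (median 70.0) in WT and from 73.9 to 129 (median 95) in PBS, a difference of 0.40 ± 0.07 (adjusted p = 2.98e-05, limma). In Bmal1ΔcDC neither passed (0.14, adjusted p = 0.205, and 0.13, adjusted p = 0.122). Ndufv1, the flavin-carrying core subunit, did not pass in PBS, at 0.07 (95% interval -0.03 to 0.17).

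Of the accessory subunits, Ndufa9 (chr6:126821863-126849144), which holds the peripheral arm to the membrane arm, ran from 84.1 to 113 CPM (median 94.1) in WT, 94.7 to 135 (median 115) in Bmal1ΔcDC and 107 to 178 (median 129) in PBS. The differences were 0.24 ± 0.05 (adjusted p = 0.00127, limma) in Bmal1ΔcDC, which was 0.15 (adjusted p = 0.0885) with median-of-ratios scaling, and 0.44 ± 0.05 (adjusted p = 1.15e-07) in PBS. At ZT3 the PBS values of 137, 119 and 142 CPM lay above all 5 WT values of 95.7, 90.4, 107, 95.1 and 93.4. Ndufa12 had a median of 59.8 CPM in WT, 80.5 in Bmal1ΔcDC and 81.0 in PBS, with differences of 0.35 ± 0.10 (adjusted p = 0.00879) and 0.49 ± 0.09 (adjusted p = 6.8e-05, limma). Ndufa6 was the only complex I gene that passed as lower in Bmal1ΔcDC, by -0.31 ± 0.10 (adjusted p = 0.0157, limma). The difference was above 0 in 22 of 36 complex I genes.

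In complex II, the iron-sulfur subunit gene Sdhb (chr4:140961271-140979198) was higher in every PBS library than in any WT library, by a narrow margin. It ran from 136 to 175 CPM (median 157) in the 20 WT libraries and from 176 to 247 (median 205) in the 12 PBS libraries, so the highest WT and lowest PBS values nearly met. Sdhb and Cox6a2 were the only members in which all PBS libraries lay above all WT libraries, 2 of 85 against 1.73% of all genes. The difference of Sdhb was 0.40 ± 0.05 (adjusted p = 2.33e-07, limma) in PBS and 0.10 ± 0.05 (adjusted p = 0.151) in Bmal1ΔcDC, where the range was 147 to 188 CPM. The membrane anchor gene Sdhc was higher in PBS by 0.40 (adjusted p = 9.12e-05, limma) and its partner Sdhd by 0.18 (adjusted p = 0.00535). Sdha, the flavoprotein that oxidises succinate, was higher in Bmal1ΔcDC by 0.21 ± 0.07 (adjusted p = 0.0232, limma), with 238 to 379 CPM (median 298) in WT and 271 to 411 (median 348) in Bmal1ΔcDC. In PBS it was at 0.12 (95% interval -0.01 to 0.26).

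In complex III, the core protein gene Uqcrc1 was higher in both comparisons, by 0.15 ± 0.05 in Bmal1ΔcDC (adjusted p = 0.016, limma) and 0.24 ± 0.05 in PBS (adjusted p = 0.000271). It ran from 189 to 267 CPM (median 220) in WT, 207 to 272 (median 251) in Bmal1ΔcDC and 218 to 290 (median 263) in PBS, so that the groups overlapped. Uqcrfs1, the Rieske iron-sulfur protein, was lower in Bmal1ΔcDC by -0.16 ± 0.05 (adjusted p = 0.0288, limma), and so was Uqcrh, the hinge protein, by -0.38 ± 0.11 (adjusted p = 0.00802). At ZT15 Uqcrh was at 113, 153 and 150 CPM in Bmal1ΔcDC and at 181, 251, 189, 175 and 232 in WT. All 3 Bmal1ΔcDC values were below all 5 of WT at that time.

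Cox6a2 of complex IV had the largest difference of the 84 members in both comparisons. This gene (chr7:128205435-128206366), the isoform of subunit 6A known from heart and skeletal muscle, was at 1.67, 1.29, 0.889, 0.539 and 0.726 CPM at ZT3, 0.142, 0.186, 0.475, 0.574 and 0 at ZT9, 1.01, 1.14, 1.48, 0.718 and 1.76 at ZT15 and 0.972, 0.603, 0.996, 1.1 and 0.996 at ZT21 in WT. In PBS it was at 6.42, 8.16 and 9.04 CPM at ZT3, 5.46, 4.16 and 6.60 at ZT9, 8.36, 7.5 and 3.55 at ZT15 and 4.0, 3.55 and 4.67 at ZT21. Every PBS library was above every WT library. In Bmal1ΔcDC the values were 3.79, 2.82 and 3.51 CPM at ZT3, 0.992, 1.65 and 0.736 at ZT9, 1.46, 6.66 and 2.65 at ZT15 and 0.618, 1.73 and 3.89 at ZT21, which lay above all WT values of the same time at ZT3 and ZT9 and overlapped with them at ZT15 and ZT21. The differences from WT were 2.28 ± 0.13 (adjusted p = 3.28e-13, limma) in PBS and 1.05 ± 0.18 (adjusted p = 6.76e-05) in Bmal1ΔcDC, on the log2(CPM + 0.5) scale, which understates the change of so low a gene. With a pseudocount of 0.1 they were 2.84 and 1.42. A single read was worth at most 0.0498 CPM.

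The ZT9 values of Cox6a2 in WT lay below all WT values at ZT21, with a difference of -0.93 ± 0.23 (adjusted p = 0.091, limma; unadjusted p = 0.000601), the smallest p of any member for these times. Its cosinor in WT peaked at 20.2 h with an amplitude of 0.48 (adjusted p = 0.412, limma; unadjusted p = 0.0152). Its ubiquitous partner Cox6a1 (chr5:115345652-115348958), whose NRF1 motif is printed above, ran from 236 to 469 CPM (median 319) in WT, 215 to 427 (median 343) in Bmal1ΔcDC and 316 to 512 (median 383) in PBS. It was higher in PBS by 0.25 ± 0.08 (adjusted p = 0.0168, limma) and at 0.03 in Bmal1ΔcDC (95% interval -0.14 to 0.21). With the short transcripts as a covariate its PBS difference was -0.0083 (adjusted p = 0.931).

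Markers of plasmacytoid DCs, a DC type that makes interferon, were also examined, with no measure of joint change with Cox6a2. This list of 8 genes was added after seeing the data. Siglech averaged 7.48, 3.97, 7.71 and 5.8 CPM at ZT3, ZT9, ZT15 and ZT21 in WT, 27.2, 10.9, 27.7 and 20.7 in Bmal1ΔcDC and 67.8, 48.7, 43.7 and 38.4 in PBS. Like Cox6a2 it was lowest in WT and highest in PBS at each time, with its lowest mean at ZT9 in WT and Bmal1ΔcDC. It was higher by 1.70 in Bmal1ΔcDC and 2.96 in PBS (both adjusted p under 0.05, limma), as were Klk1 by 1.39 and 3.21 and Ly6d by 1.00 and 2.03. In all, 4 of 8 genes passed as higher in Bmal1ΔcDC (23.5% of all genes) and 7 of 8 in PBS (24.6%). The summed levels were 185 to 327 CPM in WT, 164 to 521 in Bmal1ΔcDC and 331 to 533 in PBS. The Bmal1ΔcDC range thus enclosed that of WT. The part of plasmacytoid DCs in the Cox6a2 values was not tested.

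Cox4i2 (chr2:152753916-152765039), the isoform of subunit 4 known from lung and from cells that sense oxygen, was at 0 to 0.689 CPM (median 0.299) in WT. In Bmal1ΔcDC it was at 0.838, 0.235 and 0.412 CPM at ZT3, 0.305, 0.245 and 0.427 at ZT9, 3.06, 1.42 and 1.26 at ZT15 and 1.15, 1.22 and 0.498 at ZT21. In PBS it was at 0.940, 0.530 and 0.803 at ZT3, 0.607, 0.708 and 1.44 at ZT9, 1.31, 4.64 and 2.88 at ZT15 and 2.97, 2.12 and 3.23 at ZT21. In both groups the values at ZT15 lay above all those at ZT3, while WT was at or below 0.689 at every time. The fitted differences from WT, on the log2(CPM + 0.5) scale and given with no test, were 0.69 in Bmal1ΔcDC and 1.38 in PBS, and with a pseudocount of 0.1 they were 1.20 and 2.17.

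The fitted peak of Cox4i2 lay at 17.1 h with an amplitude of 0.74 in Bmal1ΔcDC and at 17.8 h with 0.91 in PBS, and the libraries that let it pass the threshold were mostly those of ZT15 and ZT21. Of 7 pericyte and endothelial genes, a list added after seeing the data, 5 were tested. Cdh5 alone passed, as higher in both Bmal1ΔcDC (23.5% of all genes) and PBS (24.6%). The median over the 5 tested genes went the other way, at -0.33 in Bmal1ΔcDC and -0.15 in PBS. The list summed to 10.2 to 23.2 CPM in WT, 4.95 to 20.8 in Bmal1ΔcDC and 10.3 to 49.6 in PBS. The sort had been on CD45+CD11c+MHCIIhigh cells, and the part of other cells in the Cox4i2 values was not tested. The ubiquitous Cox4i1 (chr8:120668225-120674209) ran from 461 to 653 CPM (median 507) in WT, 253 to 588 (median 458) in Bmal1ΔcDC and 465 to 629 (median 524) in PBS. It was lower in Bmal1ΔcDC by -0.29 ± 0.08 (adjusted p = 0.0075, limma) and at -0.04 in PBS (95% interval -0.17 to 0.09).

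**Figure D5:**
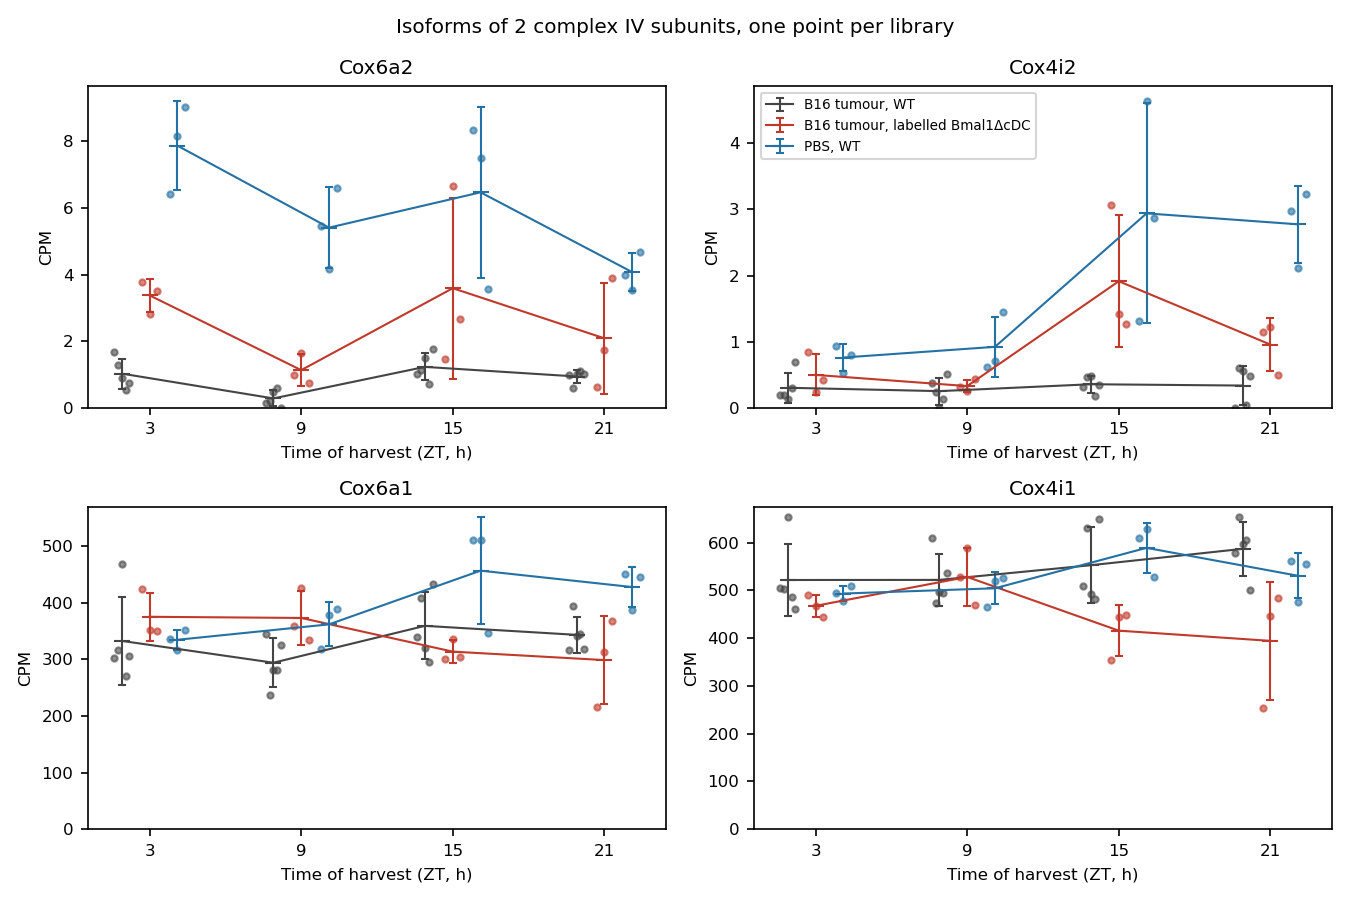
CPM (y axis) of Cox6a2, Cox4i2, Cox6a1 and Cox4i1 by ZT of harvest in hours (x axis), with points for libraries, lines through timepoint means and bars for SD (n = 5 in WT, n = 3 in the others). Cox6a2 is at 3.55 CPM or above in every PBS library and at 1.76 or below in every WT library, and Cox4i2 in PBS and Bmal1ΔcDC is higher at ZT15 than at ZT3.

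Cox7c, a small subunit of complex IV (chr13:86044798-86046795), was higher in both groups, with 106 to 180 CPM (median 126) in WT, 98.7 to 265 (median 193) in Bmal1ΔcDC and 148 to 281 (median 180) in PBS. The differences were 0.51 ± 0.10 (adjusted p = 0.000331, limma) and 0.55 ± 0.09 (adjusted p = 1.15e-05). At ZT3 the Bmal1ΔcDC values of 226, 218 and 199 CPM lay above the WT values of 126, 108, 158, 117 and 125. Cox7c was 1 of 7 members (with Atp5j, Ndufa13, Ndufa7, Ndufs1, Ndufs5 and Uqcrc2) whose values were not whole numbers of reads in most libraries, so reads may be split with another gene and its level is uncertain. The other subunits named here did not pass in either comparison: Cox5a was at -0.05 in Bmal1ΔcDC and 0.14 in PBS, Cox5b at -0.15 and -0.04, Cox6b1 at -0.12 and 0.04, Cox7a2 at -0.01 and 0.12, Cox8a at -0.20 and 0.06 and Ndufa4 at -0.09 and 0.10. The low isoforms Cox6b2 (median 3.47 CPM in WT) and Cox7a1 (0.767 CPM) did not pass either.

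Cox7a2l, which joins complex IV to complex III in supercomplexes, was lower in Bmal1ΔcDC by -0.26 ± 0.07 (adjusted p = 0.00649, limma), with a median of 204 CPM in WT, 179 in Bmal1ΔcDC and 203 in PBS. At ZT15 it was at 137, 158 and 157 CPM in Bmal1ΔcDC and at 205, 260, 191, 176 and 224 in WT, which did not overlap. Of the complex I assembly factor genes, Ndufaf1 was higher in both comparisons, by 0.28 (adjusted p = 0.0417, limma) and 0.26 (adjusted p = 0.0395). Ndufaf4, whose NRF1 motif is printed above, was higher in PBS by 0.46 (adjusted p = 0.00141, limma), with 8.40 to 14.9 CPM (median 11) in WT and 10.5 to 20.9 (median 15.7) in PBS.

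In complex V, 3 genes encode the same mature c subunit of the proton-driven ring, and in PBS they differed in direction. Atp5g2 (chr15:102662868-102671047) was lower in both groups. It was at 169, 168, 270, 167 and 170 CPM at ZT3, 186, 159, 181, 174 and 191 at ZT9, 194, 235, 198, 177 and 243 at ZT15 and 204, 236, 213, 191 and 171 at ZT21 in WT. In Bmal1ΔcDC it was at 157, 135 and 134 CPM at ZT3, 157, 176 and 137 at ZT9, 112, 141 and 129 at ZT15 and 86.9, 130 and 142 at ZT21. The groups overlapped at ZT9 and at no other time. The differences were -0.52 ± 0.08 (adjusted p = 1.79e-05, limma) in Bmal1ΔcDC and -0.22 ± 0.07 (adjusted p = 0.0129) in PBS, where it ran from 132 to 205 CPM (median 164).

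Atp5g1 and Atp5g3 were higher in PBS by 0.30 ± 0.08 (adjusted p = 0.00477, limma) and 0.38 ± 0.07 (adjusted p = 0.000112). In Bmal1ΔcDC they were at -0.06 (95% interval -0.26 to 0.14) and -0.07 (-0.22 to 0.07). Atp5g3 ran from 150 to 257 CPM (median 172) in WT, 128 to 205 (median 176) in Bmal1ΔcDC and 185 to 315 (median 236) in PBS. The catalytic core of complex V moved little: Atp5a1 was higher in PBS by 0.14 ± 0.04 (adjusted p = 0.0125, limma), Atp5b was at 0.04 (95% interval -0.04 to 0.12) and Atp5c1 at 0.08 (-0.02 to 0.17). In Bmal1ΔcDC Atp5b was at -0.03 (95% interval -0.11 to 0.06), with 772 to 940 CPM (median 821) against 721 to 955 (median 822) in WT. Atp5e, the epsilon subunit of the central stalk, was lower there by -0.33 ± 0.13 (adjusted p = 0.0473, limma), a call not made without the outlying libraries (-0.16, adjusted p = 0.137).

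Other genes of the pathway are given as counts at an adjusted p under 0.05 (limma), against 23.5% of all genes higher and 10.2% lower in Bmal1ΔcDC, and 24.6% and 13.3% in PBS. Of 44 assembly factors outside the symbol rule, 9 were higher and 3 lower in Bmal1ΔcDC, and 16 higher and 2 lower in PBS. Among them Cox10, which acts in the synthesis of haem A for complex IV, was at 0.57 and 0.93. Of 18 genes of electron carriers, 6 were higher and 1 lower in Bmal1ΔcDC and 8 higher and 1 lower in PBS, with the ubiquinone synthesis gene Coq7 at 0.46 and 0.95. Of 19 TCA cycle and pyruvate dehydrogenase genes, 12 were higher and 1 lower in Bmal1ΔcDC and 9 higher in PBS, with Idh3a, the catalytic subunit of isocitrate dehydrogenase, at 0.65 and 0.80. Of 13 nuclear regulators, 4 were higher and 1 lower in Bmal1ΔcDC, with the mitochondrial transcription factor gene Tfb2m at 0.43 and the coactivator gene Ppargc1a at -0.83, and 1 was higher and 1 lower in PBS. Of 8 genes for exchange across the mitochondrial membranes and for the ATP synthase inhibitor, 1 was higher and 1 lower in Bmal1ΔcDC and 2 were higher in PBS, among them the ADP/ATP carrier gene Slc25a5 at 0.35.

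Of 16 glycolysis genes, 11 were higher in Bmal1ΔcDC and 12 in PBS, with medians of 0.29 and 0.33 (log2). Gapdh, which oxidises glyceraldehyde phosphate, was at 1.74 and 1.91 and the lactate dehydrogenase gene Ldha at 0.54 and 0.61. None of these 16 was lower in either group. The 77 mitochondrial ribosomal protein genes, which serve the synthesis of the mitochondrially encoded subunits, had 16 higher and 7 lower in Bmal1ΔcDC (median 0.08) and 42 higher and 2 lower in PBS (median 0.19). The 87 cytosolic ribosomal protein genes had 5 higher and 64 lower in Bmal1ΔcDC (median -0.45) and 8 higher and 24 lower in PBS (median -0.12). With the same WT libraries as controls, the members' medians of 0.00071 and 0.16 thus lay nearer to those of the mitochondrial than of the cytosolic ribosomal protein genes, a difference that was not tested. The members' median in PBS was -0.05 with the short-transcript covariate, under which no ribosomal median is given here.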

How the data were processed

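RNA of sorted cells had been amplified with SMART-Seq v4 and made into Nextera XT libraries, a method that does not mark strand, so reads from a gene and an antisense partner cannot be told apart. Per the labels, reads were aligned with STAR to mm10 and counted with HTSeq 0.9.1. The authors deposited 1 table of CPM (counts scaled to a fixed total of reads) in which each column sums to 1000000. From the steps between low values, 89.1% to 91.6% of values came out as whole reads (within 0.02), too few for a count test. The 11963 genes that reached 1 CPM in 5 or more libraries were tested on log2(CPM + 0.5) with limma 3.58.1 in R 4.3.3, two-sided, with Benjamini-Hochberg adjustment over all of them; the table work used Python 3.11.15 with pandas 2.3.3. Each condition was fitted with a 24-h cosinor (F test of sine and cosine) and with timepoint means (ZT9 minus ZT21), and conditions were compared in 32 libraries by the mean of the 4 within-time differences and by the condition by time interaction. The scripts were tested on simulated data. Exon lengths are unions of GENCODE M21 exons, and positions and promoter windows are RefSeq GRCm38.p6. No library pair held identical values, and each library was counted once.

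Complex means are the mean over genes of log2(CPM + 0.5) minus each gene's mean over 44 libraries and are descriptions with no test. Genes were named when among the 8 smallest p of those passing in a comparison, or as the smallest cosinor p of a complex in a condition, or as core subunits, members with isoforms or those next to the CPM threshold; of other lists, up to 4 passing genes a comparison could be named. Ndufs6, Ndufa6, Sdhc, Sdhd, Ndufaf4 and Atp5e were named after their values were seen. The members and lists were chosen with earlier results of these data known. Alternatives were other pseudocounts, median-of-ratios scaling, other filters, array weights, an intensity trend, a replicate block and leaving out each library, and, chosen after seeing the data, leaving out both outlying libraries and the short-transcript covariate. Of the members, 1 is counted in all totals but is not reported here by itself, nor shown in the map of single genes.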

Additional observations from a re-analysis of the deposited data

Results flagged for a closer look

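In 76 sets of 5 WT libraries of a timepoint (named genes and complex means), 11 had 1 library far from the other 4, where chance gives about 1 in 20. In 8 of these the library was WT ZT3 replicate 3, the highest of its time in Atp5g2 (269.5 CPM against 170 for the next), Cox4i1 (653 against 504), Cox6a1 (469 against 316) and Ndufa12 (80.5 against 56.2), and in the mean log2 deviation of all members (0.21 against -0.13), complex I (0.20 against -0.14), complex III (0.30 against -0.05) and complex V (0.39 against -0.08). The same library had the lowest mean of long transcripts of other genes among all libraries. Cox4i2 was highest in WT ZT3 replicate 5 (0.689 CPM against 0.290 for the next). Cox6a2 was lowest of its time in WT ZT21 replicate 2 (0.603 CPM against 0.972). The mean deviation of complex II was lowest of its time in WT ZT15 replicate 4 (-0.0948 against -0.01).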

How the results depend on the processing

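Counts of members that passed leave out Cox4i2. No member passed the cosinor, the ZT9 minus ZT21 contrast or an interaction at an adjusted p under 0.05 in any alternative except with array weights, which called 3 members in ZT9 minus ZT21 in WT (3.95% of all genes) and 7 in the genotype by time interaction (8.95%); the cause was not tested. Members with a cosinor at an unadjusted p under 0.05 numbered 4 in WT (9.2% of all genes), and 2 with median-of-ratios scaling (9.7%), 29 with array weights (22.4%) and 20 without both outlying libraries (19.6%). They numbered 0 in Bmal1ΔcDC (10.5% of all genes), and 13 with median-of-ratios scaling (9.5%), 6 with an intensity trend (12.1%), 2 with no filter (10.1%) or a mean of at least 10 CPM (13.5%), and 1 with array weights (11.9%), the outlying libraries left out (9.58%) or the short-transcript covariate (9.81%). They numbered 7 in PBS (7.38% of all genes), and 15 with median-of-ratios scaling (7.21%), 22 with no filter (7.69%), 16 with a mean of at least 10 CPM (8.48%), 37 with an intensity trend (8.53%) and 1 with the covariate (6.56%). Members with an acrophase in the first 12 h numbered 2 in WT with median-of-ratios scaling (51.1% of all genes) and 49 with the covariate (51.9%), and 19 in PBS with the covariate (56.6%). Median-of-ratios scaling moved the median of all genes in ZT9 minus ZT21 in Bmal1ΔcDC from -0.12 to -0.0012.

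Without the outlying libraries the median over the members of ZT9 minus ZT21 in Bmal1ΔcDC was 0.0268 in place of 0.268, and with the covariate it was 0.0334, and -0.00466 in place of -0.175 in WT. With the covariate 40 members (41.5% of all genes) and with array weights 23 (39.1%) passed between Bmal1ΔcDC and WT in place of 15 (33.7%). In PBS minus WT 35 members (37.9% of all genes) passed and 22 (37.7%) did so after median-of-ratios scaling, and the median was -0.0468 with the covariate in place of 0.160.

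With single libraries left out, unadjusted cosinor counts ran from 2 to 20 in WT (7.36% to 19.6% of all genes), 0 to 21 in Bmal1ΔcDC (8.37% to 12.9%) and 0 to 38 in PBS (5.68% to 9.04%), where without PBS ZT21 replicate 2 it was 23 and without PBS ZT3 replicate 2 or ZT15 replicate 1 it was 0. Counts of 2 in WT came without ZT9 replicates 2, 4 or 5 or ZT21 replicates 2, 3 or 4. Acrophases in the first 12 h ran from 3 to 8 in WT (3 without ZT21 replicate 1; 56.6% to 63.5% of all genes), 65 to 73 in Bmal1ΔcDC (32.3% to 36.3%) and 9 to 13 in PBS (55.5% to 59.7%). The median of ZT9 minus ZT21 ran from -0.226 to -0.136 in WT, 0.0268 to 0.478 in Bmal1ΔcDC and -0.197 to -0.0462 in PBS. Between Bmal1ΔcDC and WT 11 to 22 members (30.9% to 34.1% of all genes) passed, with a median of -0.0394 to 0.0697, and between PBS and WT 27 to 44 (34.4% to 40.5%), with a median of 0.134 to 0.196.

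Deviations of same-numbered libraries had correlations across genes of -0.10 to 0.08 over 12 pairs of WT with Bmal1ΔcDC and of -0.04 to 0.17 over 12 pairs of WT with PBS, of which 2 were over 0.1; the numbers were not taken to pair the mice. With the replicate number as a block, 14 members passed between Bmal1ΔcDC and WT (27.4% of all genes) and 25 between PBS and WT (30.8%), and 1 had an unadjusted cosinor p under 0.05 in PBS (6.52%). Values near 0.0498 CPM rest on single reads, which limits Cox6a2 and Cox4i2 in WT.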
